A study of Mus musculus with 2 samples.

Results

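Within the stromal cells of aged gonadal white adipose tissue (gWAT), 400 of 7010 gated cells had the highest combined RNA levels of Vdr, Thbd, Adamts9 and Adamts4, and they are called the high cells here. They were chosen by those 4 measured levels: the score of a cell was the mean, over the 4 genes, of ln(1 + unique molecular identifiers (UMIs) per 10000 UMIs of the cell), and the 400 highest scores of both libraries pooled were taken. The gate held cells with 1001 to 6999 genes and under 8% of UMIs from mitochondrial genes, with fewer than 5 UMIs of the mesothelial genes Msln, Upk3b, Krt19, Lrrn4 and Upk1b, under 1% of UMIs from the immunoglobulin genes Igkc, Ighm, Igha and Jchain, fewer than 3 UMIs of Calca and Ncam1, and fewer than 10 UMIs of Pi16 and Dpp4. The whole series held 17404 barcodes, of which 10241 passed the limits on genes and mitochondrial UMIs.

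The cells came from gWAT of 18-month-old male mice of the genotype p16-CreERT2/Rosa26-LSL-tdTomato, which had been given tamoxifen. In these mice the p16 (Cdkn2a) gene drives a tamoxifen-dependent Cre recombinase, which removes a stop sequence before tdTomato, so a cell that expressed p16 when tamoxifen was given keeps the red reporter. CD31- CD45- cells, a sort that leaves out most endothelial and immune cells, were separated into tdTomato-positive (Tom+, the p16high cells) and tdTomato-negative (Tom-, the p16low cells), and 1 droplet library was made of each. Both groups came from mice of the same genotype and treatment, and the labels do not say how many mice gave each library. With 1 library per group no test between groups is possible, a difference between Tom+ and Tom- cells cannot be told apart from a difference between the preparations, and all intervals below are exact 95% intervals that cover counting error only.

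The vitamin D receptor, encoded by Vdr, is a nuclear receptor that binds calcitriol, pairs with retinoid X receptors and switches target genes on or off; Cyp24a1, which breaks calcitriol down, is its classical target. Thrombomodulin, encoded by Thbd, is a cell surface receptor for thrombin that turns it from clotting towards activation of protein C. Adamts9 and Adamts4 encode secreted metalloproteases that cut large proteoglycans such as versican and aggrecan, and stromal progenitors of fat tissue are a known source of matrix proteases, cytokines and adipocytes.

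The RNA 5′ ends of 2 of the 4 genes and of 4 genes that stood higher in the high cells are shown by the 250 bases before the RefSeq start on GRCm38.p6, 5′ to 3′ on the gene's strand. RefSeq starts can differ from the ends of the gene spans given with the values, which are those of the GENCODE annotation: the Vdr window lies inside the GENCODE span of Vdr, and the Has1 window overlaps the end of that of Has1. Thbd and Adamts4 were not analysed here in this way. Capitals mark matches, on either strand, to 4 short motifs: AP-1 (TGANTCA), the cyclic AMP response element (TGACGTCA), C/EBP (TTGCGCAA) and NF-kappaB (GGANNTTCC). The 6 are shown because Vdr and Adamts9 define the cells and the other 4 genes are the cytokine, prostaglandin, hyaluronan and chemokine genes that the results turn on.
Vdr, chr15:97908297-97908546, minus strand: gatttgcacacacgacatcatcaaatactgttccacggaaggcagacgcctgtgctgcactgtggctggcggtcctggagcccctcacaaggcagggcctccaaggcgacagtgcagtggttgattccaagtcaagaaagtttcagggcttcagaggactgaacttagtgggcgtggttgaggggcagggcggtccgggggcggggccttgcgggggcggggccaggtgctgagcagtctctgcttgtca
Adamts9, chr6:92943535-92943784, minus strand: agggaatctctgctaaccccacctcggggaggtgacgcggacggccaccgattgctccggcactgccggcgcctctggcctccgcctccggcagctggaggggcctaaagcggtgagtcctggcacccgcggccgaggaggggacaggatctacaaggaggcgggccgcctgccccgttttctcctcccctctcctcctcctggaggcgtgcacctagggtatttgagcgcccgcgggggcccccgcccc
Il6, chr5:30012864-30013113, plus strand: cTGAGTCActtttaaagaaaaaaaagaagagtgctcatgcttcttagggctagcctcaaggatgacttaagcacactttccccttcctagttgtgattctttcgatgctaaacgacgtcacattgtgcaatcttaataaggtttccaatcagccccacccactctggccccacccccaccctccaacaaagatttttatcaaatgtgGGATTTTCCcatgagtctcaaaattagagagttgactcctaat
Ptgs2, chr1:150099781-150100030, plus strand: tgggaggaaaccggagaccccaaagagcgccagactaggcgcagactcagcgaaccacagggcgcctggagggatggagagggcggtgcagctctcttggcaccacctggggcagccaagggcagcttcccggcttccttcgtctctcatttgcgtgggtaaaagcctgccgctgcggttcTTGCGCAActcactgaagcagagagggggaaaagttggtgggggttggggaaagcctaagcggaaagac
Has1, chr17:17855189-17855438, minus strand: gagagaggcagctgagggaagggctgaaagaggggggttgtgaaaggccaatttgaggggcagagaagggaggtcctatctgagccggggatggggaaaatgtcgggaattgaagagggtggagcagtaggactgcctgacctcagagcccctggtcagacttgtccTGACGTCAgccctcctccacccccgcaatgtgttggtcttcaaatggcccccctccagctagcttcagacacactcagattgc
Cxcl1, chr5:90890995-90891244, plus strand: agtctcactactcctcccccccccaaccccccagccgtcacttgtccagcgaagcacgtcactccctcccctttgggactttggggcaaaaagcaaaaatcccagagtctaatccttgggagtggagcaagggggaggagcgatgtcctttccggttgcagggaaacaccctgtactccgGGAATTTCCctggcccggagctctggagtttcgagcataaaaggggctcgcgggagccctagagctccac

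None of the 4 motifs is spelled out in the windows of Vdr or Adamts9. Il6 has an AP-1 match from 249 to 243 bases upstream and an NF-kappaB match from 43 to 35, Ptgs2 a C/EBP match from 69 to 62, Has1 a cyclic AMP response element from 83 to 76, and Cxcl1 an NF-kappaB match from 70 to 62. Of all 32851 promoter windows of this length, 6.75% hold the AP-1 letters, 1.55% the cyclic AMP response element, 0.164% the C/EBP letters and 3.59% the NF-kappaB letters. Of the 5698 windows of genes measured here, 4.60%, 3.04%, 0.298% and 3.86% hold them in the same order. In the 191 windows of genes that stood higher in the high cells (143 of 199 genes had an entry) the shares were 8.90%, 3.14%, 1.05% and 5.24%, and in the 249 windows of genes that stood lower (184 of 237 genes) they were 5.62%, 4.82%, 0% and 6.02%. A match describes letters, not a bound site.

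The Tom+ library held 5566 barcodes and 61119807 UMIs and the Tom- library 11838 barcodes and 96872394 UMIs, over the same 31054 genes. Of the barcode sequences, 2224 were listed in both libraries. In the gate such barcodes belonged to 2 Tom+ and 1 Tom- high cells and to 251 Tom+ and 48 Tom- cells of the rest, and without them the Tom+ share of the high cells was 14%. The 58 Tom+ high cells had a median of 12268.5 UMIs and 3247.5 genes, and the 342 Tom- high cells 11464 UMIs and 2982.5 genes. In the rest of the gate the medians were 13965 UMIs and 3781 genes in 2761 Tom+ cells, and 11017 UMIs and 3144 genes in 3849 Tom- cells. The median share of mitochondrial UMIs was 4.39% and 4.05% in Tom+ and Tom- high cells, and 4.22% and 3.79% in the rest. Summed over cells, 756265 Tom+ and 4004938 Tom- UMIs stood behind the high cells, so the Tom+ values are the less precise.

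High cells were rarer among Tom+ than among Tom- cells. They made up 2.06% (1.57 to 2.65) of the gated Tom+ cells and 8.16% (7.35 to 9.03) of the gated Tom- cells. Put the other way, 14.5% (11.2 to 18.3) of the high cells came from the Tom+ library, against 40.2% (39.1 to 41.4) of the gate. Tom+ cells of the gate were the deeper ones, as given above, so cells were also thinned to 6959 UMIs before ranking. The Tom+ share was then 14.8%. Thinning to this depth left out 31 high cells and 670 cells of the rest, which had fewer UMIs. Of the next 400 cells by score, 20.5% were Tom+ cells, and of the 1930 cells with no UMI of any of the 4 genes, 46.8% were.

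The score ran from 0 to 2.61 with no gap at the limit, so a class cut from it is the top of a range, and the score alone does not say whether the cells form a type. The cell at rank 400 scored 1.26716 and the cell at rank 401 scored 1.2669. Within 0.05 below and above this limit lay 55 cells of the rest and 55 high cells, and within 0.1 they were 122 and 106. At the limit the makeup of the score differed from cell to cell: the cell at rank 400 had 11 Adamts4 and 4 Adamts9 UMIs and none of Thbd or Vdr, while the cell at rank 401 had 23 Thbd, 3 Adamts9 and 1 Vdr UMI and none of Adamts4. Among the high cells, 109 had UMIs of all 4 genes, 245 of 3 and 46 of 2.

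**Figure D1:**
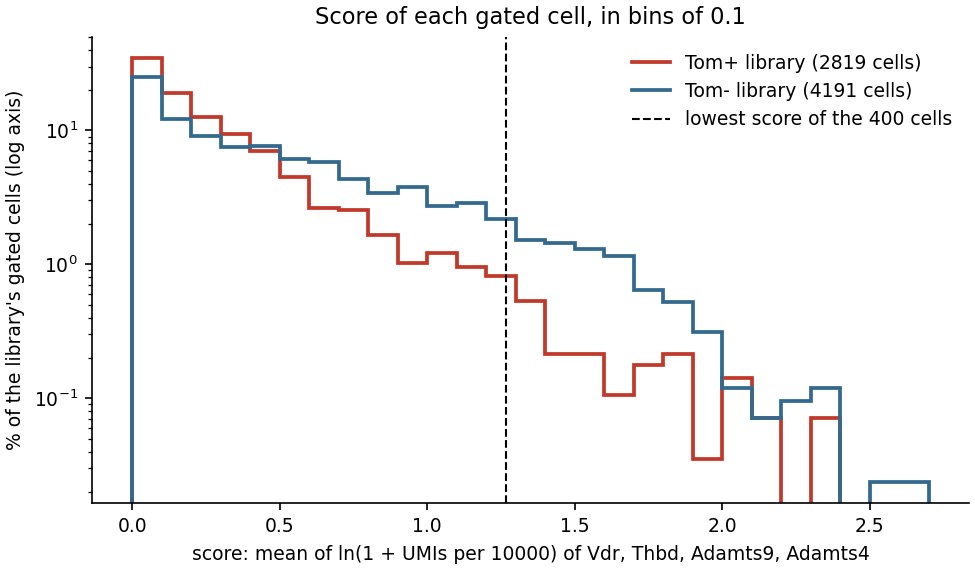
Share of each library's gated cells (y axis, per cent, log scale) in bins of 0.1 of the score of Vdr, Thbd, Adamts9 and Adamts4 (x axis), with the lowest score of the 400 high cells as a dashed line at 1.26716. Both curves decline with no gap at the line, and around the line the Tom- curve lies above the Tom+ curve.

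The 4 genes themselves describe the choice and are given without any reading. Levels are counts per 1000000 UMIs (CPM), with UMIs summed over a group of cells. Vdr (ENSMUSG00000022479, GRCm38 chromosome 15, 97854425 to 97910630) stood at 164 CPM in the high cells of the Tom+ library and 153 CPM in those of the Tom- library, against 6.51 and 10.8 CPM in the rest. Thbd (ENSMUSG00000074743, chromosome 2, 148404466 to 148408188) was at 1607 and 1469 CPM against 167 and 320 CPM. Adamts9 (ENSMUSG00000030022, chromosome 6, 92772699 to 92943492) was at 551 and 564 CPM against 28.1 and 79.0 CPM, and Adamts4 (ENSMUSG00000006403, chromosome 1, 171250421 to 171260637) at 689 and 608 CPM against 33.2 and 63.6 CPM. In the rest each of the 4 genes was lower in Tom+ cells, with log2 ratios of Tom+ over Tom- of -0.73 for Vdr, -0.94 for Thbd and Adamts4 and -1.49 for Adamts9. In single high cells Thbd ranged from 0.70 to 50.0 UMIs per 10000 in Tom+ cells (median 12.0) and from 0 to 66.5 in Tom- cells (median 12.7). The median of Vdr was 0 in both libraries, with a highest value of 15.8 and 18.6 UMIs per 10000, and 25 of 58 Tom+ and 147 of 342 Tom- high cells had a Vdr UMI.

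Because each gene entered its own score, the cells were also chosen by the other 3 genes and the gene left out was read. Vdr was then 10.0-fold higher in the chosen cells than in the rest in the Tom+ library and 5.10-fold in the Tom- library. Adamts4 was 8.04-fold and 3.53-fold higher, Adamts9 7.77-fold and 3.44-fold, and Thbd 3.61-fold and 2.32-fold. The 4 genes were put together with earlier results of these data known, so this describes the set and supports nothing. Of the chosen cells, 341, 288, 274 and 270 were high cells when Vdr, Adamts9, Adamts4 and Thbd were left out. In cells thinned to 1 depth, Vdr and Adamts9 shared cells more often than independent genes would: 34 Tom+ cells held both, against 8.13 if the genes fell independently (a ratio of 4.18), and 169 Tom- cells did against 75.1 (2.25). For Adamts9 and Adamts4 the ratios were 2.76 and 1.86. Pairs with Thbd cannot be set against the others, since 2075 of 3706 thinned Tom- cells held Thbd and a common gene limits the ratio: 221 of 288 Tom- cells with a Vdr UMI also held Thbd (a ratio of 1.37). These counts run over cells of 1 library each, which share depth and source, and carry no test.

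The label of activated preadipocytes held in part. Of 8 markers of adipocyte progenitor cells (APCs), none differed by 1.5-fold in both libraries. Of all 5595 genes compared below, 3.63% were higher and 4.24% lower, so this count is near that share and says little by itself. Pdgfra, the PDGF receptor that marks APCs, was at 313 and 270 CPM in Tom+ and Tom- high cells against 382 and 300 CPM in the rest. Dcn, a matrix proteoglycan of fibroblasts, was at 20325 and 22991 CPM against 20527 and 23751 CPM. Of 10 preadipocyte markers, 8 reached a mean of 20 CPM. Cebpb, an early adipogenic transcription factor that is also an inflammatory one, was higher, and Fabp4 and Plin2, which bind and coat lipid, were lower. Pparg, the master factor of fat cell formation, was at 15.9 and 16.7 CPM against 22.4 and 26.3 CPM. Cd36 was at 3.97 and 4.00 CPM against 44.1 and 12.9 CPM, and Dlk1 at 0 UMIs in the high cells. The cells are therefore called by their leading genes and not by that name.

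Of the markers of other cell types, Wt1 stood higher in the high cells than in the rest, and the plasma cell markers, at 668 and 234 CPM in sum against 691 and 250 CPM, were at a level like that of the rest. The gate held these plasma cell markers, Igkc, Ighm, Igha and Jchain, under 1% of the UMIs of every cell, so high levels were left out beforehand. Wt1, a transcription factor of mesothelium and visceral fat stroma, was at 514 and 491 CPM in the high cells against 174 and 246 CPM in the rest. It made up most of the 521 and 526 CPM summed over the 10 mesothelial markers (186 and 291 CPM in the rest); the gate limited 5 of the others, and no other member passed the 7.99 CPM of Upk3b in Tom- cells, with Msln at 1.32 and 5.99 CPM. The 8 immune markers summed to 17.2 and 15.7 CPM against 290 and 124 CPM, the 9 endothelial markers to 10.6 and 6.74 CPM against 11.4 and 14.5 CPM, and the 8 mural markers to 97.8 and 105 CPM against 166 and 170 CPM, with Des the most abundant in the high cells at 60.8 and 68.7 CPM. The 4 Schwann cell markers summed to at most 3.97 CPM and the 5 adipocyte markers to 0 and 0.749 CPM, and Adipoq, Plin1 and Sox10 were at 0 UMIs. Igkc, an immunoglobulin gene of plasma cells, was alike in high cells and rest, at 493 and 520 CPM in Tom+ cells and 172 and 178 CPM in Tom- cells.

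Against the rest of the gate, the cytokine gene Il6, the chemokine gene Cxcl1, the cyclooxygenase gene Ptgs2 and the hyaluronan synthase gene Has1 stood higher in the high cells, and Txnip, Angptl4, Fabp4 and Plin2 were among the genes that stood lower. Of 5595 genes that averaged at least 20 CPM over the 4 groups of cells, 203 (3.63%) were at least 1.5-fold higher in both libraries and 237 (4.24%) at least 1.5-fold lower. The 4 scored genes are among the 203, and the counts of members below are to be read against these shares. The median log2 ratio over all 5595 genes was -0.18 in the Tom+ and -0.16 in the Tom- library. With that median set to 0, 282 genes were higher and 101 lower. Without the 1 high cell of each library that held the most UMIs of a gene, 165 of the 203 genes were still higher, and without the 3 such cells 136 were. This step was chosen after seeing the data, and it left cells out of the high cells only, which lowers the ratios by construction. The cells were chosen in the same libraries in which these ratios were read, so the ratios describe the high cells and test nothing.

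**Figure D2:**
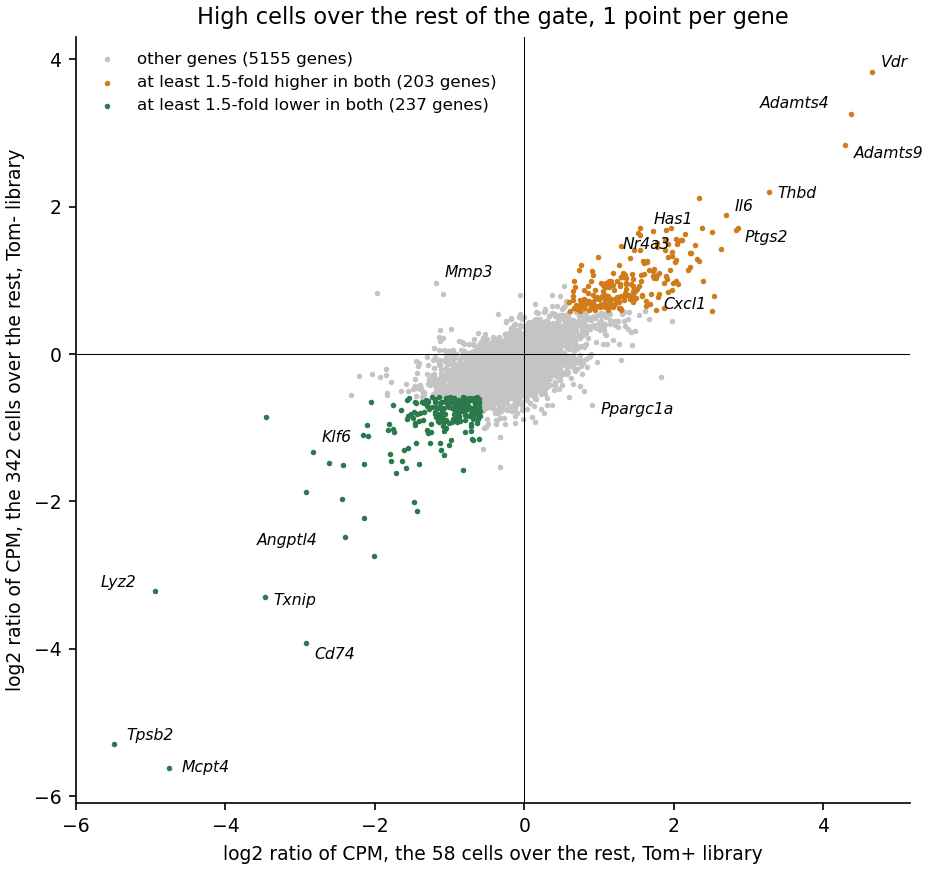
Log2 ratio of CPM in the high cells over the rest of the gate, in the Tom+ library (x axis, 58 high cells) and the Tom- library (y axis, 342 high cells), 1 point for each of 5595 genes. The 4 scored genes lie at the top right, followed by Il6, Cbarp and Ptgs2. Txnip, Angptl4 and the mast and immune cell genes Tpsb2, Mcpt4, Lyz2 and Cd74 lie at the lower left. Mcpt4 had 0 UMIs in Tom- high cells and is drawn at the floor of 3 UMIs.

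Of the list of cytokines, chemokines and related inflammatory genes, which also held the prostaglandin enzymes Ptgs2 and Ptges, 9 of 17 measured genes were higher, Ptgs2 among them, and none lower, with a median log2 ratio of 1.02 in Tom+ and 0.72 in Tom- cells. Il6, the interleukin 6 gene (ENSMUSG00000025746, chromosome 5, 30013114 to 30019981), was at 1090 and 1178 CPM in Tom+ and Tom- high cells against 168 and 318 CPM in the rest, log2 ratios of 2.70 (2.59 to 2.80) and 1.89 (1.84 to 1.93). Ptgs2, the inducible cyclooxygenase that starts prostaglandin synthesis (chromosome 1, 150100031 to 150108227), was at 1501 and 1262 CPM against 210 and 393 CPM. Both genes were thus several-fold higher in either library. Cxcl1, a neutrophil chemokine, was at 7237 and 9400 CPM against 1917 and 4659 CPM, log2 ratios of 1.92 and 1.01. Cxcl2, a chemokine of the same receptor, was at 309 and 395 CPM against 50.0 and 146 CPM, and 62.4% of its UMIs in the Tom+ high cells came from 3 cells. The other higher members were the cytokines Lif and Il33 and the chemokines Ccl7, Ccl11 and Cxcl13. Without the highest cell of each gene, 5 of the 17 genes were higher, since Lif, Ccl7, Ccl11 and Cxcl13 no longer reached 1.5-fold in both libraries, and Cxcl10 was counted as lower. For Cxcl13, 1 Tom+ high cell held 145 of 147 UMIs: with it the level was 194 CPM in Tom+ high cells against 33.4 CPM in the rest, and without it 2.72 CPM, below the rest. In Tom- cells Cxcl13 was at 180 CPM against 105 CPM, and at 99.5 CPM without the 3 highest cells. Ccl2, the monocyte chemokine, was at 1004 and 1681 CPM against 855 and 1482 CPM and did not reach 1.5-fold, and Cxcl10, an interferon-induced chemokine, was at 34.4 and 50.4 CPM against 39.3 and 85.2 CPM.

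Within the high cells these genes varied widely. Il6 had a median of 3.73 UMIs per 10000 in Tom+ and 5.89 in Tom- high cells, with a range from 0 to 70.8 and from 0 to 62.0. In the rest its median was 0 in both libraries, but single cells reached 77.7 and 105.6, so the highest Il6 cells of the gate were not among the high cells. Ptgs2 had a median of 4.31 and 5.02 against 0 and 0, and a highest value of 88.4 and 148 against 96.6 and 111. Cxcl1 had a median of 58.2 and 82.7 against 6.14 and 22.3 UMIs per 10000. High cells and rest overlapped for every one of these genes.

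Of the NF-kappaB factors and targets, 5 of 15 measured genes were higher and none lower, with medians of 0.56 and 0.34. Nfkb1, which encodes the p105 and p50 subunit, was at 1058 and 1246 CPM against 318 and 559 CPM. Tnfaip3, a feedback inhibitor of the pathway, was at 249 and 133 CPM against 59.7 and 68.7 CPM, and the others were Tnfaip2, Birc3 and Bcl3, of which Birc3 was not past 1.5-fold in both libraries without its highest cell. Nfkbia, the inhibitor that the pathway induces, was at 701 and 805 CPM against 540 and 716 CPM, and Rela at 56.9 and 62.2 CPM against 56.5 and 68.2 CPM, neither past 1.5-fold in both libraries.

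Hyaluronan genes had 3 higher of 5 measured. Has1, a hyaluronan synthase (chromosome 17, 17843323 to 17855205), was at 1174 and 1381 CPM against 206 and 440 CPM, log2 ratios of 2.51 (2.41 to 2.61) and 1.65 (1.61 to 1.69). Tnfaip6, whose product binds hyaluronan and links proteins to it, was at 2875 and 3096 CPM against 747 and 1405 CPM, and Ugdh, which makes the sugar precursor UDP-glucuronate, at 1831 and 1503 CPM against 681 and 781 CPM. Has2, the other synthase measured, was at 34.4 and 48.7 CPM against 38.8 and 34.7 CPM, and the hyaluronan receptor Cd44 at 78.0 and 66.7 CPM against 75.8 and 72.7 CPM. One synthase thus stood apart, with the enzyme before it and a binding protein, while the receptor did not.

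**Figure D3:**
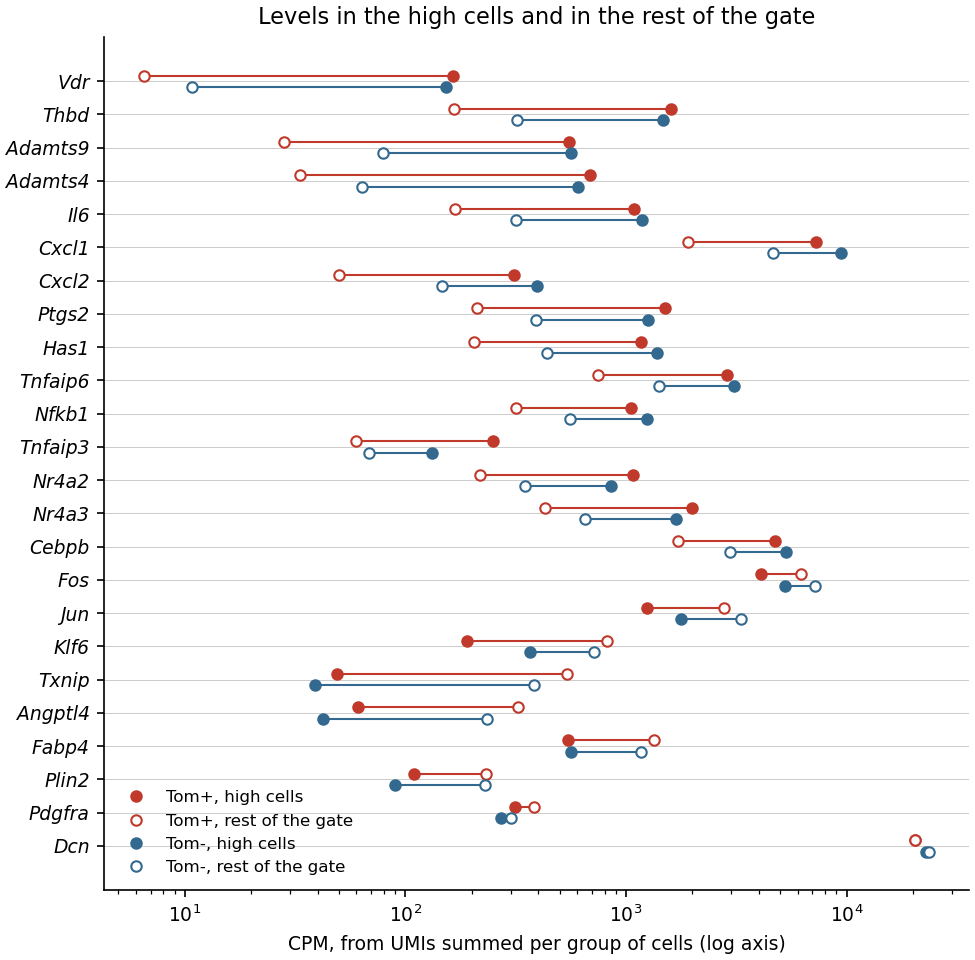
CPM (x axis, log scale) of 24 genes in the high cells (filled) and the rest of the gate (open) of the Tom+ (red) and Tom- (blue) libraries. The filled points lie to the right of the open ones from Vdr to Cebpb and to the left from Fos to Plin2, and for Pdgfra and Dcn they lie close together.

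Immediate early genes stood on both sides. Of 44 measured, 12 were higher and 7 lower, and their medians were 0.39 and 0.0072. The orphan nuclear receptors Nr4a2 (chromosome 2, 57106830 to 57124003) and Nr4a3 (chromosome 4, 48045153 to 48086447) were higher, Nr4a3 at 1985 and 1692 CPM against 428 and 652 CPM and Nr4a2 at 1075 and 854 CPM against 217 and 350 CPM. With them were Fosl1 and Fosl2, Ier3, Maff, Crem, Klf4, Sik1, Gadd45b, Csrnp1 and Rgs2, with log2 ratios from 0.62 to 1.87. Of these 12, Fosl1 did not pass 1.5-fold in both libraries without its highest cell. The lower members were Jun, Atf3, Klf6, Klf10, Dusp6, Cyr61 and Arc, of which Klf6 was at 190 and 368 CPM against 820 and 718 CPM and Jun at 1247 and 1777 CPM against 2787 and 3332 CPM. Fos was at 4096 and 5276 CPM against 6200 and 7173 CPM, and Egr1 at 5087 and 4361 CPM against 4646 and 4415 CPM. Members of 1 family thus stood on opposite sides, Fosl1 and Fosl2 higher with Fos at log2 ratios of -0.60 and -0.44, and Klf4 higher with Klf6 lower. Of 11 heat shock genes, which tissue handling can induce, Bag3 was higher and Hspa1a and Hspa1b lower, Hspa1a at 51.6 and 97.6 CPM against 161 and 267 CPM. The part of cell isolation in these levels was not tested.

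Genes next to the scored ones in function were read as well. Of 17 genes of the vitamin D system, 9 were measured and none differed by 1.5-fold in both libraries. With 3.63% of all genes higher and 4.24% lower, this count is near the share of all genes and says little about the system. Rxra, the partner of the receptor, was at 19.8 and 19.0 CPM against 28.7 and 21.0 CPM, and Ncor1, a corepressor, at 173 and 118 CPM against 176 and 148 CPM. Cyp24a1 had 0 UMIs in all 4 groups of cells, which allows up to 4.88 CPM in the Tom+ and 0.921 CPM in the Tom- high cells. Of 14 coagulation and fibrinolysis genes, Procr, the protein C receptor that works beside thrombomodulin, was higher at 144 and 156 CPM against 74.1 and 99.7 CPM, Tfpi2, a protease inhibitor, was higher, and S100a10 was lower. Without the highest cell of each gene, neither Procr, at 76.0 CPM in Tom+ high cells, nor Tfpi2 was past 1.5-fold in both libraries. F3, tissue factor, was at 304 and 432 CPM against 251 and 328 CPM. Of 8 other ADAMTS genes measured, Adamts1 was higher at 1019 and 923 CPM against 464 and 466 CPM and Adamts12 lower, and Adamts5, the other main aggrecanase, was at 1034 and 844 CPM against 1274 and 1007 CPM. Vcan, which encodes the substrate versican, was at 234 and 203 CPM against 156 and 143 CPM, just short of 1.5-fold in 1 library, and Timp3, which encodes an inhibitor of ADAMTS proteases, was lower at 268 and 183 CPM against 580 and 448 CPM, log2 ratios of -1.11 (-1.32 to -0.91) and -1.30 (-1.41 to -1.19). With the median ratio set to 0, Vcan, Bgn and Serping1 were counted as higher, with Nr4a1, Myc, Cxcl12, Vegfa, Fgf2 and Col6a5 of the lists in the other paragraphs, and S100a10, Adamts12, Mmp11, Cyr61 and Tsc22d3 no longer as lower.

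Among the growth factors, Hgf, hepatocyte growth factor, was at 27.8 and 36.2 CPM from 21 and 145 UMIs, against 6.68 and 12.5 CPM. Igf1 was at 916 and 655 CPM against 513 and 739 CPM, on opposite sides in the 2 libraries. Of 5 measured markers of adipogenesis-regulatory cells, Mgp, a matrix protein, was higher at 4018 and 2763 CPM against 1256 and 1725 CPM, and so was Clec11a. Without its 3 highest cells Mgp did not pass 1.5-fold in both libraries. Of 13 glucocorticoid response genes, the metallothioneins Mt1 and Mt2 were higher and Tsc22d3 lower, with Mt1 at 7458 and 8279 CPM against 2938 and 4678 CPM, while Fkbp5, Per1 and Zbtb16 did not pass 1.5-fold in both libraries. None of 20 collagen genes did either. Of 6 matrix metalloproteinases, Mmp11 was lower. Mki67 and Top2a, which mark dividing cells, had 0 UMIs in the high cells.

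Adipogenic genes had 1 higher and 3 lower of 16. Cebpb (ENSMUSG00000056501) was at 4746 and 5320 CPM against 1724 and 2947 CPM, log2 ratios of 1.46 and 0.85, and each of the 400 high cells held at least 6.65 UMIs per 10000 of it. Fabp4, the fatty acid binding protein of fat cells, was at 549 and 561 CPM against 1345 and 1174 CPM, Plin2 at 110 and 89.4 CPM against 232 and 230 CPM, and G0s2, an inhibitor of lipolysis, was the third lower member. Cebpd was at 686 and 829 CPM against 676 and 910 CPM, and Lpl, lipoprotein lipase, at 1308 and 1044 CPM against 998 and 1015 CPM. The early factor was thus higher in the cells whose lipid genes were lower, and the lipase of the same programme was not among the lower ones.

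By size alone, the genes highest in the high cells after the scored ones were Il6, Cbarp, Ptgs2, Emb, Has1, Rnf217, Cxcl2, Ubash3b, Pqlc1, Star, Tiparp, Eprs, Odc1, Fem1b, Nr4a2, Hgf, Nr4a3, Mrap, Cwc25, March3, Pja1, Emd, Ahcyl2, Enah and Slc2a1. Among them, Star moves cholesterol into mitochondria, Odc1 opens polyamine synthesis, Eprs charges transfer RNAs and Slc2a1 carries glucose. Tiparp, an ADP-ribosyltransferase that the aryl hydrocarbon receptor induces, was at 891 and 904 CPM against 206 and 310 CPM, and Eprs at 886 and 851 CPM against 207 and 290 CPM. Odc1 was at 554 and 565 CPM against 118 and 219 CPM. Emb, a membrane glycoprotein, was at 48.9 and 111 CPM against 9.70 and 25.7 CPM. In all 4 both libraries gave the same direction, with the larger ratio in Tom+ cells. Cbarp, Emb, Ubash3b, Star, Hgf, Mrap, March3, Enah and Slc2a1 rest on 21 to 70 UMIs in the Tom+ high cells, and without its 3 highest cells Mrap was no longer past 1.5-fold there.

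The lowest genes by size were Tpsb2 and Mcpt4, proteases of mast cells, Lyz2 of macrophages and Cd74 of antigen-presenting cells, followed by Txnip, Angptl4, Trim47, Cpe, Otud1, Rgs3, Cited2, Dusp6, Peg3, Igfbp5 and Adm. The first 4 are transcripts of few cells of the rest: Tpsb2 had a UMI in 4.64% of Tom+ and 1.14% of Tom- cells of the rest, with up to 296 in 1 cell. In the gate 151 cells held 5 or more UMIs of 8 immune and mast cell genes, 3 of them high cells, and without these 151 cells 200 genes were higher and 233 lower. Txnip, an inhibitor of thioredoxin that restrains glucose uptake (chromosome 3, 96557957 to 96561883), was at 48.9 and 39.0 CPM against 542 and 381 CPM, log2 ratios of -3.47 (-3.98 to -3.01) and -3.29 (-3.53 to -3.06). Angptl4, an inhibitor of lipoprotein lipase that fatty acids induce, was at 60.8 and 42.2 CPM against 323 and 235 CPM. Adm, which encodes adrenomedullin, was at 160 and 183 CPM against 709 and 514 CPM. These 3 genes stood well below the rest in either library. Cited2, a transcriptional coregulator, was at 11.9 CPM from 9 UMIs in Tom+ high cells and 71.2 CPM in Tom- high cells, against 131 and 128 CPM, so its ratio was -3.46 in 1 library and -0.85 in the other.

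Several of the genes followed the score below the limit as well, and others did not. In Tom+ cells, Il6 went from 1090 CPM in the high cells to 748 CPM in the next 400 cells by rank, 673 CPM at ranks 801 to 1600, 204 CPM at 1601 to 3200, 111 CPM at 3201 to 5080 and 59.5 CPM in cells without a UMI of the 4 genes. In Tom- cells the order was the same, from 1178 over 857, 631, 329 and 140 to 93.1 CPM. Txnip ran the other way in Tom- cells, from 39.0 over 46.1, 84.3, 241 and 502 to 731 CPM. Klf6 was at 368 and 364 CPM in the first and second 400 ranks in Tom- cells, and at 190 and 372 CPM in Tom+ cells. Cebpb was at 5320 CPM in the Tom- high cells and 5197 CPM in the next 400 ranks, and at 1926 CPM in cells without the 4 genes. Il33 was higher in the next 400 ranks than in the high cells, at 77.5 against 66.1 CPM in Tom+ and 97.3 against 90.4 CPM in Tom- cells, with counting intervals that overlapped. Cxcl13 was so in Tom- cells, at 247 against 180 CPM, and Cxcl2 in Tom- cells went from 395 over 213 to 313 CPM. The cells just below the limit thus carried part of the same pattern.

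**Figure D4:**
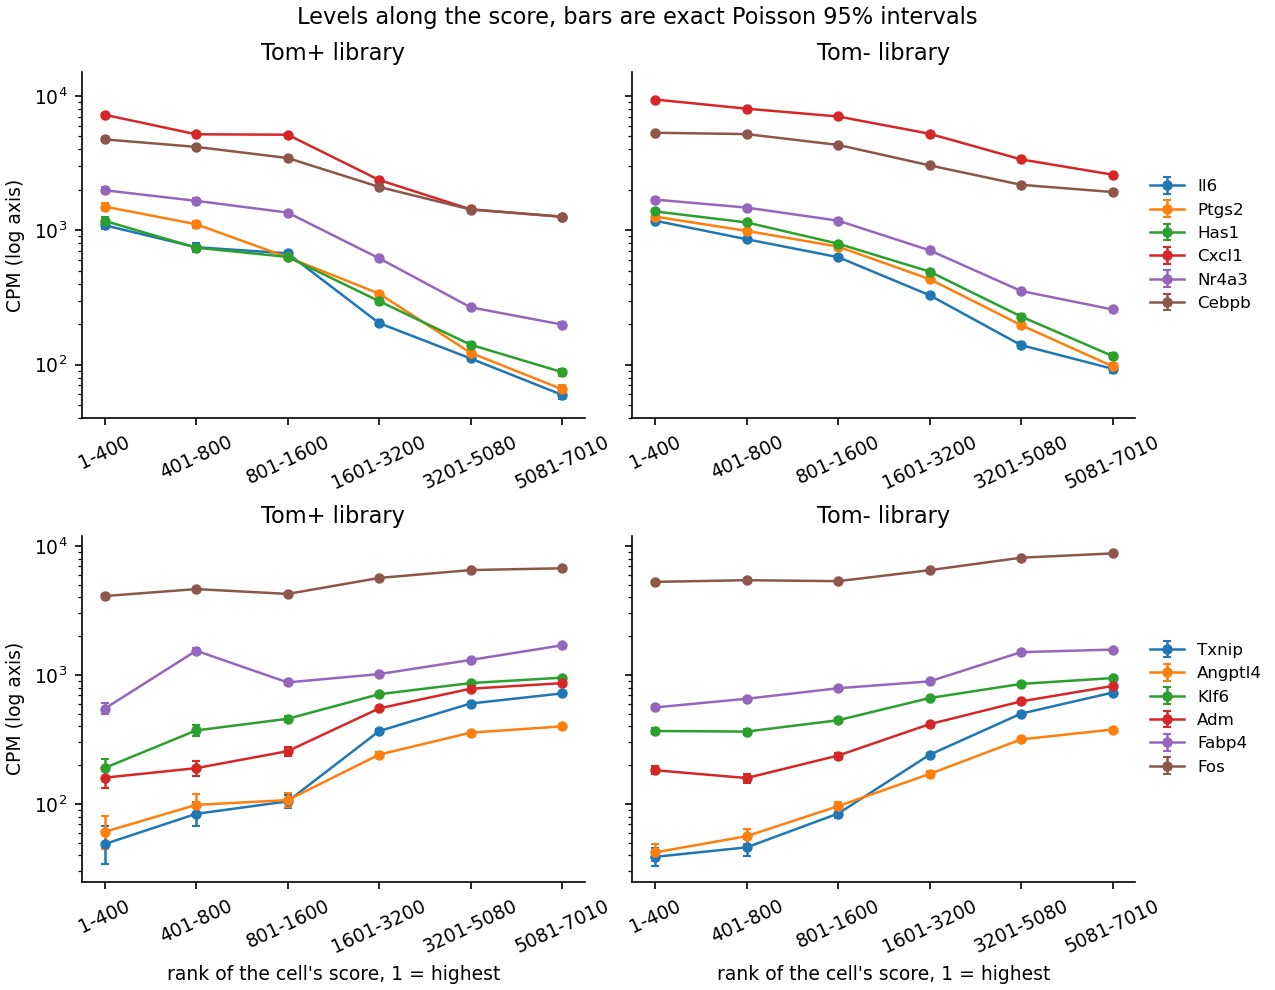
CPM (y axis, log scale, bars are exact Poisson 95% intervals) of 12 genes in 6 groups of gated cells ordered by rank of the score (x axis), for the Tom+ (left) and Tom- (right) libraries. The genes of the upper panels, such as Il6 from 1178 to 93.1 CPM in Tom- cells, decline from left to right. Those of the lower panels, such as Txnip from 39.0 to 731 CPM in Tom- cells, increase from the first to the last group. Steps the other way occur among the highest ranks for Fabp4 in Tom+ cells, Fos in both libraries, and Adm and Klf6 in Tom- cells.

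The pattern was shared with whole clusters of cells. When the gated cells were grouped without the 4 genes, into 18 clusters numbered by their share of high cells, cluster 1 (745 cells) held 161 high cells, cluster 3 (681 cells) 119 and cluster 4 (459 cells) 55. Cluster 1 was led by Vdr, Adamts9 and Thbd, which were left out of the grouping, with Usp2, Hsd11b1, Thbs1 and Ccl11. Because the 4 genes were put together with earlier results of these data known, their lead here and the neighbour shares below describe the cells and support nothing. Cluster 3 was led by Cpxm2, Mfap4, Cxcl13 and Il33, and cluster 4 by Has1, Ptgs2 and Sfrp4. The high cells were thus spread over more than 1 cluster, and 21.6% of the cells of cluster 1 were high cells. Cluster 13, led by Car3, G0s2 and P2ry1 (906 cells), and cluster 14, led by Rab3b, Edn1 and Chchd10 (1038 cells), held 1 high cell each. Tom+ cells made up 16.0% of cluster 1 and 12.2% of cluster 3. Of the 20 nearest cells of a high cell, again without the 4 genes, 30.2% were high cells on average (24.7% for Tom+ and 31.1% for Tom- high cells), against 4.43% for cells of the rest and 5.71% of the gate, and 16 high cells had none.

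**Figure D5:**
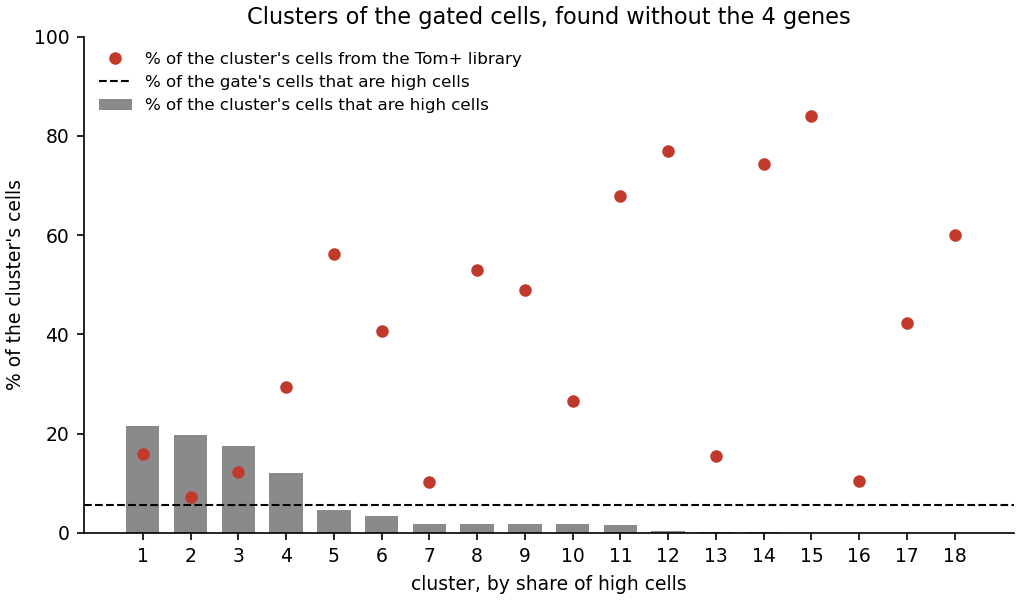
Share of high cells (bars) and of Tom+ cells (points) in each of 18 clusters of the gated cells (x axis, ordered by share of high cells), in per cent of the cluster's cells (y axis), with the share of high cells in the gate as a dashed line at 5.71%. Clusters 1 to 4 lie above the line, and Tom+ cells are 16.0%, 7.14%, 12.2% and 29.4% of their cells.

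Set against the other cells of clusters 1 and 3 alone, a comparison chosen after the data were seen, the high cells differed in far fewer genes. Then 28 genes were higher and 20 lower in both libraries, where 203 and 237 were against the whole rest. The log2 ratio, averaged over the libraries, was 0.94 for Has1, 0.83 for Ptgs2 and 0.77 for Tnfaip6. Cluster 4, led by Has1 and Ptgs2 and with 55 high cells among 459, had no part in this comparison. The ratios of Has1 and Ptgs2 therefore do not set the high cells against the cluster most like them in these genes. It was 0.53 for Il6, 0.34 for Nr4a3, 0.26 for Cxcl1, 0.13 for Cebpb, -0.50 for Txnip, -0.57 for Angptl4 and -0.55 for Klf6, none of which was past 1.5-fold in both libraries. The 4 scored genes had ratios from 1.69 to 2.31. Much of what sets the high cells apart from the gate was therefore also found in the cells that cluster with them.

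The high cells were set beside the 400 cells picked in the same way by other gene sets of the same gate, of which high cells make up 5.71%. Cells high in Vtn, Cxcl14 and G0s2 shared 21 cells with the high cells (5.25% of each set), those high in Cfd, Car3 and Itm2a 8 (2%), and those high in Cxcl13, Cpxm2 and Ltbp2 37 (9.25%). Without the shared cells, Il6 was at 505 and 732 CPM in the Tom+ and Tom- cells of the Cxcl13 set, at 187 and 133 CPM in the Vtn set and at 140 and 172 CPM in the Cfd set. Txnip was at 246 and 131 CPM in the Cxcl13 set and at 778 and 888 CPM in the Vtn set. The Cxcl13 set thus lay nearest to the high cells in both genes. Lpl was at 3119 and 2018 CPM in the Vtn set, and Cfd, the adipsin gene of late preadipocytes, was at 0 and 0.250 CPM in the high cells.

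Between Tom+ and Tom- high cells, the reporter itself was first checked. The 58 Tom+ high cells held tdTomato RNA at 517 CPM and the 342 Tom- high cells at 11.0 CPM, against 146 and 13.6 CPM in the rest. Thinning kept 51 Tom+ and 318 Tom- high cells. Of these, 23.5% (12.8 to 37.5) and 7.86% (5.15 to 11.4) held a tdTomato UMI, the latter in cells sorted as lacking the reporter. Unthinned, over all 58 and 342 high cells, the shares were 32.8% and 11.7%, at median depths of 12268.5 and 11464 UMIs. The level rests on few cells, since 3 of them gave 51.4% of the 391 UMIs and 267 CPM remained without these 3. Of the 58 Tom+ high cells 9 held 5 or more tdTomato UMIs, and of the 342 Tom- high cells 0 did, with an exact upper limit of 1.07%. The Tom+ share was 15.5% (7.35 to 27.4), against 6.23% (5.36 to 7.20) of the Tom+ cells of the rest. Cdkn2a, the p16 gene, had 0 UMIs in the Tom+ and 10 in the Tom- high cells, so at this depth it did not mark either library. Cdkn1a, which encodes the cell cycle inhibitor p21, was at 402 and 359 CPM against 275 and 277 CPM, and of 10 measured senescence genes Igfbp5 was lower in high cells and none higher.

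In the high cells 419 genes (7.49%) were at least 1.5-fold higher in Tom+ than in Tom- cells and 236 (4.22%) at least 1.5-fold lower, with a median log2 ratio of 0.064. Scaled by median-of-ratios size factors, they were 296 and 315, so the balance of the directions depends on the scaling. By the fixed rule the highest genes were tdTomato, Ppargc1a, Ighm, Nrep, Igkc, Flrt3, Mgea5, Zfp638, Slco2a1 and Dzip1l, and the lowest Mmp3, Emb, Lcn2, Iigp1, Rdh10, Vwa1, Tmem176b, Klf6, Hspa1a and Vtn. Ppargc1a, a coactivator of mitochondrial genes, was at 134 and 19.0 CPM in Tom+ and Tom- high cells, against 71.2 and 30.7 CPM in the rest, and 3 cells gave 63.4% of its 101 UMIs in Tom+ high cells. Igkc was at 493 and 172 CPM and at 520 and 178 CPM in the rest, so the same difference between libraries was found outside the high cells. Lcn2, which encodes an iron-binding protein of inflammation, was at 93.9 and 201 CPM, against 36.5 and 104 CPM in the rest. Its log2 ratio was -1.51 in the rest and -1.10 in the high cells. Here 3 cells gave 63.4% of its 71 UMIs in Tom+ high cells, and 3 gave 36.4% of 805 in Tom- high cells. Mmp3, a stromelysin, was at 55.5 and 142 CPM in the high cells and at 125 and 72.7 CPM in the rest, with 81.0% of its 42 UMIs in Tom+ high cells from 3 cells. In Tom- high cells 3 cells gave 49.1% of 568 Mmp3 UMIs, and without the 3 highest of each library 11.3 and 73.0 CPM remained. Klf6 was at 190 and 368 CPM in the high cells, and at 820 and 718 CPM in the rest. Several of these differences thus rest on a few high cells. Of the genes named, the rest of the gate had the same direction for all but Flrt3, Mmp3, Klf6 and Dzip1l. The first 3 ran the other way, and Dzip1l showed no direction there, with a log2 ratio of 0.069 (-0.062 to 0.200).

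Of the genes that stood higher in the high cells, 5 described above were also compared between the libraries. The 4 scored genes were cut at 1 pooled score, which sets their levels in both libraries, and nothing is read from them here. The log2 ratio of Tom+ over Tom- was -0.11 (-0.22 to -0.01) for Il6, 0.25 (0.16 to 0.34) for Ptgs2, -0.23 (-0.34 to -0.13) for Has1, -0.38 (-0.42 to -0.34) for Cxcl1 and 0.23 (0.15 to 0.31) for Nr4a3. In the rest the ratios of the same genes were -0.92, -0.90, -1.10, -1.28 and -0.61. These 5 genes also followed the score at which both libraries were cut, so the ratios in high cells and rest cannot be set against each other. At ranks 401 to 800, Il6 was at 748 and 857 CPM in Tom+ and Tom- cells and Ptgs2 at 1109 and 990 CPM. Has1 was there at 742 and 1144 CPM, Cxcl1 at 5180 and 8034 CPM and Nr4a3 at 1656 and 1475 CPM. The list of cytokines, chemokines and related genes, Ptgs2 included, had a median of -0.35 in the high cells and -0.90 in the rest. Of the 25 genes highest in the high cells, 3 were past 1.5-fold between the libraries inside them, with log2 ratios of -1.18 for Emb, -0.60 for Star and 0.65 for Fem1b. Whether the ratios in high cells and rest differ was not tested.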

How the data were processed

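Gene by cell counts of UMIs from 10x Genomics 3′ libraries were deposited by the authors, 1 matrix for each of the Tom+ and Tom- libraries; per the submitters' processing notes they were made with Cell Ranger 3.0.2 on mm10. The deposited counts are whole numbers, not normalized. Cells were kept by the limits given in the opening. No doublet caller was run, and leaving out cells above the 95th percentile of UMIs was an alternative. Counts were summed per library over high cells and over the rest, and expressed as CPM. Genes averaging at least 20 CPM over the 4 sums were compared, and a gene was called when it differed at least 1.5-fold in both libraries. With 1 library per group no p-value was computed; intervals are exact Poisson, Clopper-Pearson or conditional ones at 95%. Cells were clustered on 2000 variable genes without the 4 scored genes (30 principal components, 20 neighbours, Leiden). The text names the 25 highest and 15 lowest called genes by mean log2 ratio and, between libraries, the 10 highest and 10 lowest genes averaging at least 50 CPM. Symbols shared by several gene IDs (35) were left out. The members and gene lists were chosen with earlier results of these data known. Of 20 alternatives, 5 were chosen after seeing the data. The counting steps were tested on simulated Poisson counts of the sums. That simulation holds no spread between cells, so it checks the arithmetic and not the calls of genes carried by few cells. Python 3.11.15, numpy 2.4.6, scipy 1.17.1 and igraph 0.11.9 were used, and promoter windows came from RefSeq on GRCm38.p6.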

Additional observations from a re-analysis of the deposited data

Results flagged for a closer look

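Of the named genes and the genes of the lists, 3 were at least 1.5-fold higher in the high cells than in the rest in 1 library and at least 1.5-fold lower in the other, and the difference between libraries was not tested. Ppargc1a had a log2 ratio of high cells over rest of 0.91 in the Tom+ and -0.69 in the Tom- library. Without the 3 high cells of each library with the most Ppargc1a UMIs, a step chosen after seeing the data, the ratios were -0.47 and -1.18, so both libraries then lay below the rest. Mmp3, a matrix metalloproteinase, had -1.18 and 0.96, and the chemokine gene Ccl8 had -1.98 and 0.83. Without the 3 highest cells of each gene, the Tom- ratios were 0.01 for Mmp3, at 73.0 CPM against 72.7 CPM, and -0.24 for Ccl8, so none of the 3 genes was then past 1.5-fold on opposite sides.

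Cells left out of the gate also held RNA of the scored genes. Adamts9 was at 138 CPM in the Tom+ and 159 CPM in the Tom- cells removed by the limit on Calca and Ncam1, against 37.8 and 119 CPM in the gate. Thbd was at 322 and 453 CPM in the cells removed by the limit on Pi16 and Dpp4, against 193 and 415 CPM in the gate.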

How the results depend on the processing

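No paired analysis was possible because each group had 1 library. With the 300 highest cells, 458 genes were lower in Tom+ than in Tom- high cells. With 200 cells of each library, the Tom+ share was 50% by construction and 113 genes were lower. With a mean of at least 5 CPM, 857 genes were lower in high cells than in the rest, and 1253 were higher and 981 lower in Tom+ high cells. With no filter other than 1 UMI in every sum, 472 genes were higher and 1256 lower than in the rest, and 2431 were higher and 1404 lower in Tom+ high cells. Against the rest of clusters 1 and 3 alone, 28 were higher and 20 lower, and with the median ratio set to 0, 101 were lower. Without the highest cell of each gene among the high cells 362 were lower, and without the 3 highest 580, a step that lowers the ratios by construction. For 14 genes followed (the 4 scored genes, Il6, Ptgs2, Has1, Cxcl1, Nr4a3, Tnfaip6, Txnip, Angptl4, Klf6 and Cebpb), under every alternative but the size factors, 259 values kept their direction and their side of 1.5-fold, 7 kept the direction only, all 7 against clusters 1 and 3, and none turned. The 58 Tom+ high cells, with 756265 UMIs, limit the precision of every Tom+ value.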
